A study of Mus musculus with 10 samples.

Results

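Collagens are extracellular proteins built from 3 chains wound into a triple helix, and each chain is the product of its own Col gene. Fibrillar collagens form the tensile fibrils of skin, bone, cartilage and the heart's interstitium, collagen IV forms the sheet-like network of basement membranes, and the remaining types decorate fibrils, form beaded filaments or anchoring fibrils, or span the cell membrane. In the heart the fibrillar types I and III are made mainly by fibroblasts, while cardiomyocytes and endothelial cells lie on collagen IV. A row of the counts table was taken as a collagen gene where its symbol was Col, a type number, the letter a and a chain number. This rule gave 44 genes of 24540 named rows and used no measured value. They were 11 fibrillar collagens, 6 basement membrane collagens and 27 others. The others were 9 fibril-associated collagens (FACIT), 6 of the beaded filament type, 4 transmembrane, 3 network-forming, 2 multiplexins, 1 anchoring fibril collagen and 2 outside these families.

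Polyadenylated RNA of mouse cells was sequenced in 5 groups of 2 libraries, and reads were counted per gene. ES cells of the line C57BL/6N-C2 (strain C57BL/6) were kept undifferentiated with LIF on gelatin, received no treatment and are called parental in the labels. The other groups came from this line after transfection with pNkx2.5PuroIRES2eGFP, in which the Nkx2.5 promoter drives puromycin resistance and eGFP, beside G418 resistance under a CMV promoter. The labels do not say whether the ES libraries came from transfected cells. These other groups were differentiated with Noggin and then BMP4, selected with puromycin for Nkx2.5-positive cells and labelled ES-derived cardiomyocytes. They received the vehicle DMSO for 24 h, or 5 nM TCDD in that vehicle for 24, 72 or 96 h. TCDD (2,3,7,8-tetrachlorodibenzo-p-dioxin) binds AHR, the aryl hydrocarbon receptor, which is a transcription factor. The study compared control cells with ES cells and with TCDD-treated cells. The DMSO libraries match the TCDD libraries in time at 24 h only, so at 72 and 96 h TCDD and time in culture cannot be told apart. No label ties the replicates to separate cultures, and the spread behind each p-value is therefore that of libraries and could be technical.

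The libraries held 15326612 to 31192459 counts, of which collagen genes took 0.0424 to 0.144%. A count of 3, the limit that a count of 0 allows, corresponded to 0.0917 to 0.190 CPM (counts scaled to a common library size with TMM factors), and such limits cover counting error only. Markers went only partly with the cardiomyocyte label. The summed level of 10 cardiomyocyte markers was 14.0 and 14.9 CPM in the ES libraries and 34.2 to 45.3 CPM in the 8 others. In the edgeR test described below, 4 of the 10 were higher in DMSO than in ES cells and 0 lower, beside 31.0% of all genes called. Myh7 was at 0.487 and 0.539 CPM in the ES libraries and 9.78 and 9.32 CPM in DMSO. Nkx2-5, the gene whose promoter served the selection, was at 0.399 and 0.881 CPM in ES and 1.01 and 1.05 CPM in DMSO. Ryr2 (5.63 and 3.38 against 4.09 and 4.35 CPM) and Myl7 (0.842 and 2.40 against 2.17 and 1.34 CPM) overlapped between ES and DMSO. Tnnt2, cardiac troponin T, stayed at 0.190 to 0.717 CPM in the 8 libraries other than ES. The 6 pluripotency markers summed to 5121 and 6644 CPM in ES libraries and to 2576 to 3925 CPM in the others, so they stayed well above the cardiomyocyte markers. These are bulk samples, so more cells of a type and more RNA per cell cannot be told apart. ES replicate 2 and the first replicates at TCDD 24 h and 72 h were set aside in one alternative, a set taken from earlier results of these data. The replicates differed most in those groups, with a chi-square per gene of 196 in ES cells, 86.5 at TCDD 24 h and 191 at 72 h, against 18.9 at 96 h and 3.23 in DMSO, which does not say which library of a pair departs. The range of each library's trend with GC content was 2.92 and 3.29 on the log2 scale in ES cells, 1.40 and 0.35 at TCDD 24 h, and 0.42 to 2.09 in the 6 others, and it does not single out ES replicate 2. TCDD 72 h replicate 1 had the lowest depth, 10.95% of its counts from ribosomal Rn45s against 1.45 to 4.22% elsewhere, and Malat1 at 2775 CPM against 18.3 to 418 CPM.

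All 44 genes are on the mouse genome build mm10 (GRCm38), and several lie beside each other. Col4a1 (chromosome 8, 11198423 to 11312826, minus strand) and Col4a2 (chromosome 8, 11312805 to 11449287, plus strand) are arranged head to head, as are Col4a4 with Col4a3, whose starts lie 72 bp apart, and Col4a6 with Col4a5, 1343 bp apart. The starts annotated for Col4a1 and Col4a2 overlap by 22 bp at chr8:11312805-11312826. That stretch is shown on the plus strand because 2 chains of 1 molecule begin in it, in opposite directions. The transcripts of this pair were close in level in every library. Per length of transcript, the ratio of Col4a5 to Col4a6 ran from 3.20 to 9.05. Whether the head-to-head arrangement bears on levels was not tested.
Col4a1 and Col4a2 overlap: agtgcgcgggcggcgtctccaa

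Promoters are printed for Col1a2 and Col4a5, the tested members with the lowest log2 difference from DMSO at 72 h and 24 h of TCDD, and for Col6a1 and Col6a3, chains of collagen VI that moved in opposite directions between ES and DMSO cells. Each line holds the 250 bases before the RefSeq GRCm38.p6 start, 5′ to 3′ on the gene's strand, and capitals mark CCAAT, the letters bound by the factor NF-Y. The windows are chr6:4505368-4505617 (plus) for Col1a2, chrX:141475169-141475418 (plus) for Col4a5, chr10:76726045-76726294 (minus) for Col6a1 and chr1:90843972-90844221 (minus) for Col6a3.
Col1a2: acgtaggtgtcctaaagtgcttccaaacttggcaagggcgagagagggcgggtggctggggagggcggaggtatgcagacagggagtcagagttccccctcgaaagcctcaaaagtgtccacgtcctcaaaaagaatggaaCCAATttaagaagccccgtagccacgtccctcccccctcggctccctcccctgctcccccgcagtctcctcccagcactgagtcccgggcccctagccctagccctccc
Col4a5: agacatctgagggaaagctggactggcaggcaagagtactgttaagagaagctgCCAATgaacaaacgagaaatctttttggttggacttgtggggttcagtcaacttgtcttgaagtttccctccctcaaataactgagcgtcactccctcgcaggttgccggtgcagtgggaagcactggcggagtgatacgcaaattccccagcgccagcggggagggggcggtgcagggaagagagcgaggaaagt
Col6a1: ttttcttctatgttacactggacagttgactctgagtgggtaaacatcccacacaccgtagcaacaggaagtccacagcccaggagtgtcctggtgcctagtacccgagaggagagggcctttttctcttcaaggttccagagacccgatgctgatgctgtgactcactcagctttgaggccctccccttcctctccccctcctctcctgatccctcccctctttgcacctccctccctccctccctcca
Col6a3: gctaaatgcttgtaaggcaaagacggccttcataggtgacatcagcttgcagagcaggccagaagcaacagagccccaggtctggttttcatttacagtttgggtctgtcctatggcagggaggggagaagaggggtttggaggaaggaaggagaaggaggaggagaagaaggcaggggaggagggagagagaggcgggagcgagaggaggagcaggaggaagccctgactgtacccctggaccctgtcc

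CCAAT was searched on both strands, with GCGTG, the core letters of the element bound by AHR and its partner ARNT. The RefSeq table held 38 such windows for 35 of the 44 collagen genes. CCAAT was in 13 of the 38 (34.2%), against 33.8% of 32851 windows over all genes. GCGTG was in 8 of the 38 (21.1%), against 28.2% of all windows, and in none of the 4 printed. A match is a description of letters and shows no binding.

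Collagen transcripts also resemble each other in make-up. Their median length was 5989 nt and their median number of exons 48, against 3046 nt and 8 over the tested genes. The median GC content was 55.4%, against 50.6%. The median of that trend over the collagens ran from -0.23 (ES replicate 1) to 0.29 (TCDD 24 h replicate 1) on the log2 scale.

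Col18a1, a multiplexin of basement membranes whose C-terminal end is cleaved into endostatin, dominated the collagen transcripts in every library. It took 55.0 to 64.8% of collagen CPM. Its level was 243 and 388 CPM in the ES libraries, 594 and 639 in DMSO, 970 and 725 at TCDD 24 h, 891 and 609 at 72 h and 659 and 566 at 96 h. Per length of transcript it was also the highest collagen in all 5 groups, at 56.4 RPKM in ES cells and 110.2 RPKM in DMSO cells. Col4a1 and Col4a2, the main chains of basement membranes, ranked 3 and 4 per length in ES cells and 2 and 3 in the other groups.

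Beyond these 3, 5 other members reached a group mean of 20 CPM. They were Col9a2, a chain of the cartilage FACIT collagen IX, and the fibrillar Col1a1, Col1a2, Col2a1 and Col5a1. At the other end 13 members stayed under a mean of 1 CPM in every group. A count was present in every library for 36 members, and 37 passed the expression filter and were tested. The 7 not tested were Col4a3, Col4a4, Col9a1, Col10a1, Col15a1, Col19a1 and Col28a1, none above 0.634 CPM in any library. Col4a3 and Col4a4 are the chains that join Col4a5 in the kidney's filtration membrane. Col10a1 marks hypertrophic cartilage.

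**Figure D1:**
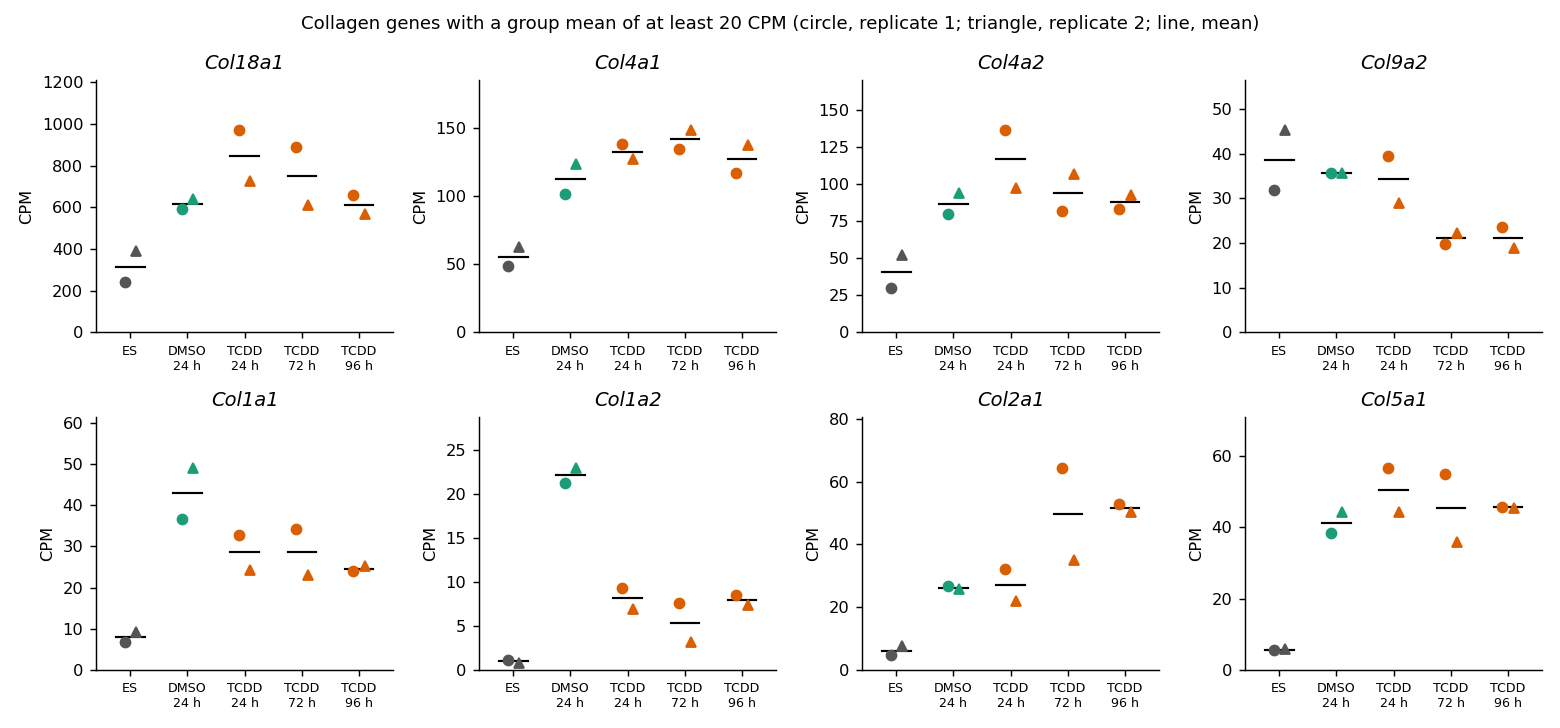
Level of the 8 collagen genes with a group mean of at least 20 CPM, in CPM on linear axes from 0, for 2 libraries in each of 5 groups. Points are libraries and lines are group means. Both DMSO libraries lie above both ES libraries in all panels but that of Col9a2, and Col1a2 is at 21.3 and 23.0 CPM in DMSO and at 9.29 CPM or less in the 6 TCDD libraries.

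Summed by class, fibrillar collagens stood at 33.7 ± 4.78 CPM (SD, n = 2) in ES cells and at 158 ± 16.4 CPM in DMSO cells. Basement membrane collagens stood at 97.2 ± 24.9 and 209 ± 27.0 CPM, and the other collagens at 392 ± 119 and 706 ± 35.6 CPM. In all 3 classes both DMSO libraries were above both ES libraries. Without Col18a1 the other collagens summed to 64.5 and 87.4 CPM in ES libraries and 86.7 and 91.7 CPM in DMSO, which overlap. In the TCDD groups the fibrillar sum was 135 ± 24.5, 157 ± 50.9 and 153 ± 0.0876 CPM at 24, 72 and 96 h, around the DMSO value. The basement membrane sum was 253 ± 35.0, 241 ± 26.3 and 220 ± 22.9 CPM, and the sum of the others 934 ± 188, 831 ± 214 and 685 ± 67.1 CPM. Replicates 1 and 2 at TCDD 24 h were at 278 and 228 CPM for basement membrane collagens, beside 190 and 228 CPM in DMSO, which overlap. For the others they were at 1067 and 800 CPM, beside 681 and 731 CPM in DMSO. These sums carry no test.

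Most collagen genes differed between DMSO cells and ES cells, and most of those were higher in DMSO cells. Of the 37 tested, 21 rose and 4 fell in edgeR's quasi-likelihood test with Benjamini-Hochberg adjustment over 15175 genes. That is 67.6% of the collagens called, beside 31.0% of all tested genes (15.5% higher and 15.5% lower). The median log2 fold change was 1.58 over the collagens and 0.0077 over all genes. By class, 8 of 11 fibrillar collagens rose and 1 fell, all 4 tested basement membrane collagens rose, and of 22 tested others 9 rose and 3 fell. The class medians were 2.11, 2.06 and 1.01. The plot of fold changes by class shows each member.

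**Figure D2:**
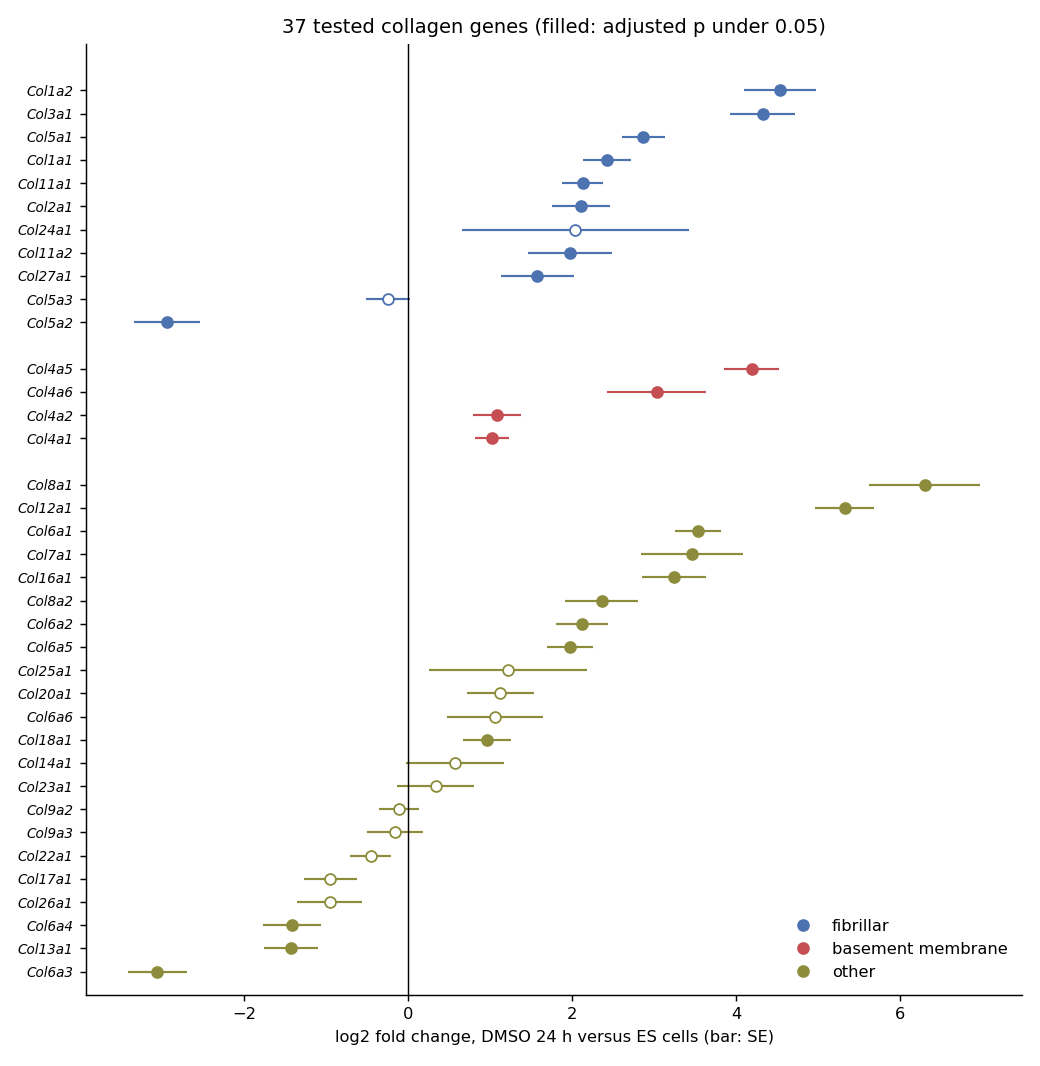
Log2 fold change of DMSO 24 h over ES cells for the 37 tested collagen genes, grouped by class, with the SE of the fit as bars. Filled points have an adjusted p under 0.05. Of these, 21 lie to the right of 0 and 4 (Col5a2, Col6a3, Col6a4 and Col13a1) to the left.

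Among fibrillar collagens, chains of the interstitial types I and III started from different levels in ES cells: Col1a2 and Col3a1 were low, while Col1a1 had the highest CPM of the fibrillar class. Col1a2, the α2 chain of type I, was at 1.11 and 0.783 CPM in the ES libraries and 21.3 and 23.0 CPM in DMSO, a 23.2-fold rise (log2 4.54 ± 0.44 SE, adjusted p = 0.00015, edgeR). Col3a1, the only chain of type III, was at 0.266 and 0.196 CPM in ES and 3.82 and 5.73 in DMSO, a log2 change of 4.33 ± 0.40 (adjusted p = 0.000118, edgeR). Col1a1, the α1 chain of type I, was at 6.87 and 9.11 CPM in ES and 36.7 and 49.2 in DMSO, 5.37-fold higher (adjusted p = 0.000472, edgeR). For each of the 3, both DMSO libraries lay above both ES libraries.

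Col5a1, which starts and limits the width of type I fibrils, rose 7.30-fold, from 5.49 and 5.83 CPM to 38.5 and 44.2 CPM (log2 2.87 ± 0.26, adjusted p = 0.000118, edgeR). Its partner chain in type V, Col5a2, fell 7.67-fold, from 2.30 and 2.01 CPM to 0.306 and 0.239 CPM (log2 -2.94 ± 0.41, adjusted p = 0.000935, edgeR). Col5a2 was the only fibrillar collagen that fell. Its neighbour on chromosome 1 is Col3a1, which rose, and the 3′ ends of both genes lie 24625 bp apart. Col5a3, another chain of type V, was at 5.23 and 8.67 CPM in ES and 5.74 and 5.97 in DMSO, which overlap (adjusted p = 0.502).

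The cartilage-type fibrillar collagens rose too. Col2a1, the chain of type II, went from 4.65 and 7.54 CPM to 26.8 and 25.7 CPM, 4.31-fold (adjusted p = 0.00267, edgeR). Col11a1, which nucleates type II fibrils, went from 2.57 and 1.81 CPM to 8.86 and 10.4 CPM, 4.38-fold (adjusted p = 0.000418, edgeR). Col11a2, the partner chain of Col11a1, and Col27a1, a collagen of developing cartilage, rose 3.94-fold and 2.99-fold, to DMSO libraries of 0.978 and 1.48 CPM and of 3.27 and 3.49 CPM. Col24a1 did not pass the test.

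All tested collagen IV chains rose. Col4a5, whose mutations cause X-linked Alport syndrome in humans, rose 18.2-fold, from 0.576 and 0.343 CPM to 7.67 and 9.41 CPM (log2 4.19 ± 0.34, adjusted p = 6.63e-05, edgeR). Col4a6, its head-to-head neighbour, rose 8.17-fold from 0.133 and 0.0979 CPM to 0.886 and 1.10 CPM. Col4a1 went from 48.6 and 62.4 CPM to 101 and 124 CPM (2.03-fold, adjusted p = 0.00682, edgeR) and Col4a2 from 30.2 and 51.9 to 80.2 and 93.7 CPM (2.12-fold, adjusted p = 0.0232, edgeR). The abundant pair thus rose by a smaller fold than the rare pair.

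Other collagens held the largest ratios. Col8a1, a network-forming chain of vessel walls, had 1 count over both ES libraries and 120 over both DMSO libraries, a ratio of 96.2 with an exact 95% Poisson interval of 16.9 to 3829. Col12a1, a FACIT collagen of tendon and healing myocardium, rose 40.1-fold, from 0.266 and 0.196 CPM to 8.13 and 10.9 CPM (log2 5.33 ± 0.36, adjusted p = 3.13e-05, edgeR). Col7a1, the anchoring fibril collagen of epithelia, went from 1.15 and 0.441 CPM to 7.91 and 9.98 CPM (log2 3.46 ± 0.62, adjusted p = 0.00355, edgeR). Col16a1, another FACIT collagen, rose 9.46-fold, and Col8a2, the partner chain of Col8a1, 5.13-fold. Col18a1 rose 1.95-fold with an adjusted p of 0.0337 (edgeR).

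Collagen VI forms beaded filaments around cells from α1, α2 and one further chain, and its chains moved in different directions. Col6a1 rose 11.6-fold, from 0.399 and 0.539 CPM to 5.56 and 5.35 CPM, and Col6a2 4.35-fold, from 0.753 and 0.832 CPM to 3.79 and 3.11 CPM. Col6a3, the usual partner of both, fell 8.31-fold from 8.95 and 12.3 CPM to 0.886 and 1.72 CPM (log2 -3.06 ± 0.36, adjusted p = 0.000389, edgeR). Among the chains that can take the place of α3, Col6a5 rose 3.93-fold, from 1.15 and 0.881 CPM to 4.25 and 3.77 CPM, and Col6a4 fell 2.67-fold to a DMSO mean of 0.799 CPM. Col6a6 did not pass the test. Col13a1, a transmembrane collagen of muscle and neuromuscular junctions, fell 2.69-fold from 3.23 and 5.14 CPM to 1.53 and 1.58 CPM (adjusted p = 0.0121, edgeR).

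The 12 other tested members did not pass, and their adjusted p ran from 0.053 for Col17a1 to 0.752 for Col9a2. Col9a2, which ranked 4 per length in DMSO, was at 31.9 and 45.3 CPM in ES and 35.8 and 35.6 CPM in DMSO. Col22a1, a FACIT collagen of muscle-tendon junctions, was at 5.63 and 7.15 CPM in ES and 4.64 and 4.68 CPM in DMSO (adjusted p = 0.192).

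Leaving out DMSO replicate 2 lost 7 of the 25 calls, those of Col4a1, Col4a2, Col6a4, Col11a2, Col13a1, Col18a1 and Col27a1, and left 18 beside 11.9% of all genes. Without DMSO replicate 1 the calls of Col4a2, Col6a4, Col13a1, Col18a1 and Col27a1 were lost, without ES replicate 1 those of Col11a2 and Col18a1, without ES replicate 2 those of Col6a4, Col13a1 and Col27a1, and without either TCDD 96 h library that of Col18a1. Leaving out each of the 10 libraries in turn gave 18 to 27 collagen calls, beside 1902 to 7736 calls over all genes. The contrast with all genes was smaller without ES replicate 1, where 24 of 39 collagens were called beside 7736 of 15879 genes. The highest adjusted p of Col18a1 in these fits was 0.152 (edgeR). Without the 3 libraries set aside 26 of 37 were called, beside 52.1% of all genes.

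Markers of other cell types moved in the same comparison, where 15.5% of all genes were higher and 15.5% lower. Of 8 fibroblast markers 5 were tested, and Postn, Pdgfrb and Thy1 rose. Their summed level was 5.14 and 6.07 CPM in ES libraries and 13.2 and 12.9 in DMSO. The defining markers Dpt and Tcf21 were at 0 in both DMSO libraries. Of 6 smooth muscle markers 5 rose, from a sum of 63.0 and 102 CPM to 693 and 677 CPM, and of 6 epithelial markers 5 rose, from 588 and 595 to 1463 and 1486 CPM. Parietal and visceral endoderm markers, a lineage rich in collagen IV, gave 4 rises and 3 falls among 9 tested, with sums of 21.3 and 28.1 CPM in ES and 33.4 and 33.8 in DMSO. Of the 6 chondrocyte markers counted, 3 rose and 1 fell, with sums of 21.1 and 28.7 against 17.7 and 17.2 CPM. Their part in the collagen differences was not tested.

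Chains of one molecule can be set against each other per length of transcript. The ratio of Col4a1 to Col4a2 RPKM stayed between 0.991 and 1.61 in all 10 libraries. The ratio of Col1a1 to Col1a2 was 5.59 and 10.5 in ES libraries, 1.56 and 1.93 in DMSO, 3.19 and 3.14 at TCDD 24 h, 4.08 and 6.53 at 72 h and 2.56 and 3.07 at 96 h. Type I collagen usually holds 2 α1 chains and 1 α2 chain, and the DMSO libraries alone lay under a ratio of 2. Their values were below those of all 8 other libraries. Col5a1 over Col5a2 went from 1.88 and 2.29 in ES to 99.4 and 146 in DMSO, and stayed at 75.9 or more in every TCDD library. The DMSO and TCDD values of that ratio are imprecise, since Col5a2 had 10 and 5 counts in DMSO and 6 to 13 in TCDD libraries. Col6a1 over Col6a3 went from 0.110 and 0.108 in ES to 15.5 and 7.67 in DMSO, and lay between 7.25 and 16.7 in TCDD libraries. These ratios are descriptions with no test.

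**Figure D3:**
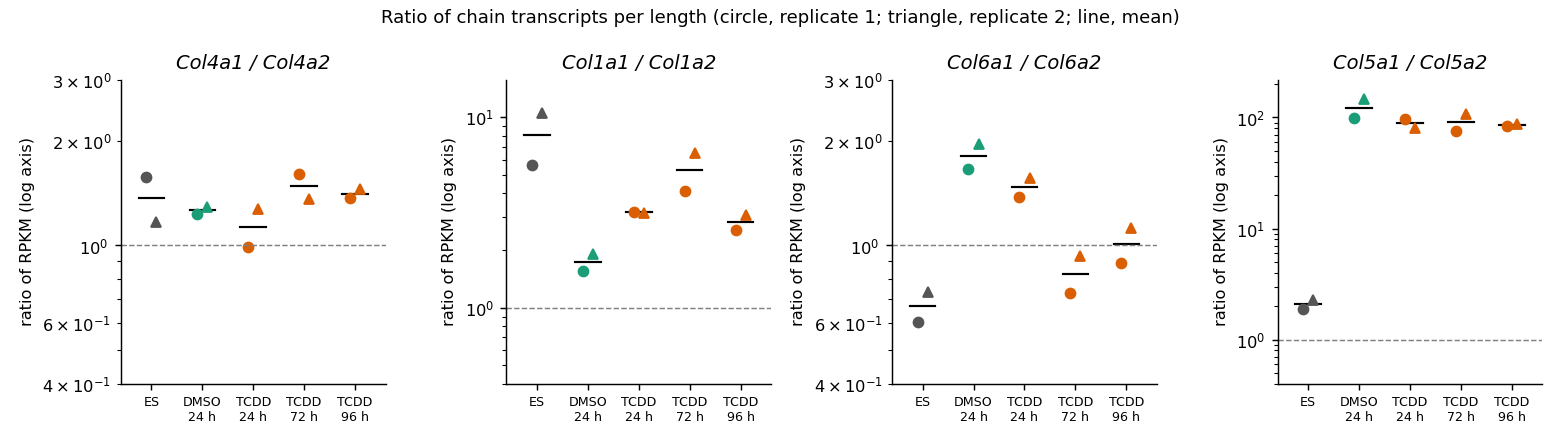
Ratio of RPKM between chains of collagens IV, I, VI and V on log axes, for 2 libraries in each of 5 groups. Lines are at group means, with a dashed line at 1. The collagen VI panel shows Col6a1 to Col6a2, which ran from 0.601 to 1.96, and not Col6a1 to Col6a3. Col4a1 to Col4a2 stays between 0.991 and 1.61, while Col5a1 to Col5a2 is 1.88 and 2.29 in ES libraries and 75.9 or more in the 8 others. Col5a2 had only 5 to 13 counts in those 8 libraries.

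Genes that modify, cut, link or bind collagen moved in both directions. Of 19 tested genes for modification and folding 2 rose and 4 fell between ES and DMSO, a share near the 31.0% called over all genes. The prolyl hydroxylase subunit P4ha3 rose to 0.655 CPM and P3h2 to 0.965 CPM, and the glycosyltransferase Colgalt1 fell from 241 to 87.7 CPM. Crtap, Plod1 and Ppib, which serve the modification and folding of new chains, fell 2.06-fold, 2.17-fold and 2.03-fold. Serpinh1, the collagen chaperone HSP47, was at 178 and 292 CPM in ES and 204 and 200 in DMSO. In processing, the C-proteinase Bmp1 rose 5.70-fold from 5.58 and 8.86 CPM to 41.0 and 41.3 CPM. Its enhancers Pcolce and Pcolce2 fell 4.11-fold and 2.53-fold. These 3 calls among 11 tested genes of the processing list are also near that share.

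The list for cross-linking had 4 of 6 genes higher and 1 lower. For this list and those that follow, the share over all genes was 15.5% higher and 15.5% lower. Lox, lysyl oxidase, had no count in either ES library and 2.57 and 3.15 CPM in DMSO, at least 40.1-fold higher against a floor of 3 counts over the group. Pxdn, the peroxidase that links collagen IV by sulfilimine bonds, rose 5.74-fold from 10.2 and 11.0 CPM to 60.6 and 61.2 CPM (adjusted p = 0.000112, edgeR). Loxl2 and Loxl4 rose 3.81-fold and 2.67-fold, and Loxl1 fell 2.12-fold.

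Among 7 tested collagen receptors 3 rose and 1 fell. Mrc2, an endocytic receptor for collagen, rose 12.2-fold from 1.24 and 1.42 CPM to 16.3 and 16.2 CPM. The discoidin receptor Ddr1 rose 2.44-fold, and Ddr2 fell 9.62-fold. Itga11 had 3 counts over both ES libraries and 71 over DMSO, a ratio of 19.0 with an interval of 6.23 to 94.1. The degradation list holds both metalloproteinases (Mmp) and their inhibitors (Timp), so its rises are not all in favour of degradation. Of 8 tested 5 rose (Timp3, Mmp9, Timp2, Mmp2 and Mmp14, 1.74-fold to 6.80-fold) and Timp1 fell 2.17-fold.

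Among laminins, nidogens and other partners of collagen IV more fell than rose. Of 16 tested 7 fell and 3 rose, and the median log2 change was -0.65. Lama1 fell 4.31-fold from 66.1 and 71.3 CPM to 15.9 and 16.0 CPM, and Lamc1 fell 2.44-fold from 586 and 607 to 234 and 255 CPM. Lama3, Lamb2, Nid1 and Nid2 fell 1.61-fold to 1.91-fold. Lamb1 rose 2.12-fold and Lamb3 2.64-fold. Smoc2 had 2 ES counts against 36, a ratio of 14.4 with an interval of 3.71 to 124. Among 11 tested partners of fibrils 5 rose and 2 fell. Thbs1 rose from 1.37 and 0.979 CPM to 142 and 170 CPM, with Thbs2, Fbn2 and Bgn rising 43.8-fold, 5.46-fold and 4.13-fold. Postn had 2 ES counts against 161. Fn1 fell 2.38-fold from 1252 and 1574 CPM and Fbn1 1.99-fold. In these lists Serpinh1 and the called genes beyond the 4 with the smallest p were named after their values were seen.

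With TCDD no collagen gene passed the test at any time. At 24 h 0 of 37 were called in edgeR, beside 0% of all genes. DESeq2 called 1 (beside 0.270% of all genes) and limma-voom 0 (beside 0%). At 72 h 0 of 37 were called, beside 0.0461% of all genes, and DESeq2 called 1 (beside 2.04%) and limma-voom 0 (beside 0.0461%). At 96 h 0 of 37 were called, beside 0.0857% of all genes, and DESeq2 called 3 (beside 1.64%) and limma-voom 0 (beside 0.125%). An unadjusted p under 0.05 (edgeR) was held by 11, 9 and 13 of the 37 at these times. Over all 15175 tested genes 1296, 2215 and 1850 had such a p. The smallest adjusted p were 0.266, 0.105 and 0.0831. The median log2 differences from DMSO were -0.11, 0.063 and -0.0097, beside 0.024, 0.029 and 0.0079 over all genes. The 3 comparisons share the DMSO libraries.

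Col1a2 was lowest in relation to DMSO at 72 h. Its level was 21.3 and 23.0 CPM in DMSO, 9.29 and 6.95 at 24 h, 7.55 and 3.19 at 72 h and 8.47 and 7.38 at 96 h. All 6 TCDD libraries lay below both DMSO libraries. The log2 differences were -1.45 ± 0.36, -2.06 ± 0.38 and -1.48 ± 0.36 (adjusted p = 0.521, 0.105 and 0.138, edgeR). DESeq2 called it at 72 and 96 h. Col1a1 was at 36.7 and 49.2 CPM in DMSO and between 23.1 and 34.2 CPM in TCDD libraries, with log2 differences of -0.59, -0.58 and -0.80.

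Col4a5 was lowest at 24 h, at 2.07 and 2.64 CPM against 7.67 and 9.41 in DMSO. It stood at 4.38 and 3.94 CPM at 72 h and 3.03 and 4.03 at 96 h. The differences were -1.85 ± 0.28, -1.04 ± 0.27 and -1.27 ± 0.27 on the log2 scale (adjusted p = 0.266, 0.157 and 0.0935, edgeR), and DESeq2 called it at 24 and 96 h. Of the other tested collagen IV chains, Col4a6 was at 0.537 and 0.580 CPM at 24 h, below the 0.886 and 1.10 CPM in DMSO (log2 -0.81 ± 0.47, adjusted p = 0.521, edgeR), and overlapped with DMSO at 72 and 96 h. Col4a1 lay between 117 and 149 CPM in TCDD libraries, against 101 and 124 in DMSO, and Col4a2 between 81.7 and 136, against 80.2 and 93.7.

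Col6a5, Col12a1, Col17a1 and Col8a1 also lay lower in all 6 TCDD libraries than in both DMSO libraries. Col6a5 was at 4.25 and 3.77 CPM in DMSO and 1.52 and 1.77 at 96 h (log2 -1.29 ± 0.26, adjusted p = 0.0831, edgeR). Col17a1, a transmembrane collagen of epithelial hemidesmosomes, was at 1.34 and 1.48 CPM in DMSO and 0.461 and 0.301 at 96 h (log2 -1.86 ± 0.37, adjusted p = 0.0831, edgeR). Col12a1 was at 8.13 and 10.9 CPM in DMSO and between 4.67 and 7.76 in TCDD libraries. Col8a1 was at 2.26 and 2.20 CPM in DMSO and 0.883 and 0.761 at 24 h, with 1.35 and 2.00 at 96 h.

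In the opposite direction, Col6a2, Col8a2 and Col9a3 were higher in all 6 TCDD libraries than in DMSO. Col9a3 was at 1.86 and 1.91 CPM in DMSO and at 3.82 and 3.95 at 96 h (log2 1.04 ± 0.33, adjusted p = 0.228, edgeR). Its partner chain Col9a2 was at 35.8 and 35.6 CPM in DMSO and 23.5 and 18.8 at 96 h (log2 -0.75 ± 0.25, adjusted p = 0.246, edgeR). The ratio of Col9a2 to Col9a3 per length was thus 19.7 on average in DMSO, and 6.41 and 4.96 in the libraries at 96 h. Col6a2 was at 3.79 and 3.11 CPM in DMSO and 5.16 to 8.14 in TCDD libraries. Col2a1 was at 26.8 and 25.7 CPM in DMSO, 32.1 and 22.1 at 24 h, 64.5 and 35.0 at 72 h and 53.0 and 50.3 at 96 h.

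Counted over tested members, 7 of 37 lay lower in all 6 TCDD libraries than in both DMSO libraries (18.9%, beside 10.2% of all tested genes) and 3 higher (8.11%, beside 11.3%). The share that lay higher is near that of all genes.

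**Figure D4:**
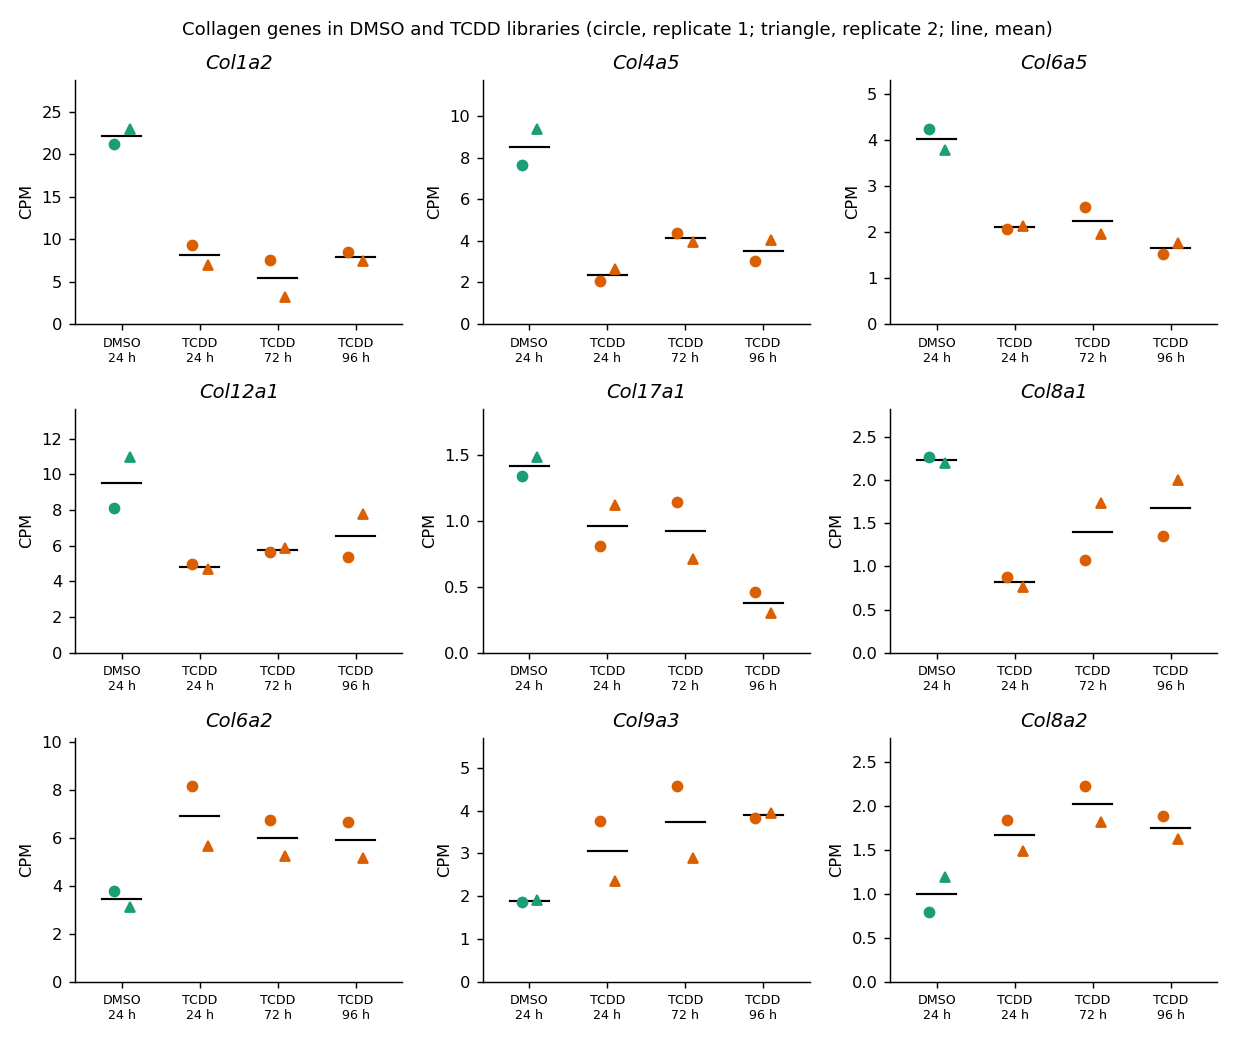
Level in CPM, on linear axes from 0, of 9 collagen genes in the DMSO and TCDD libraries. Points are libraries and lines are group means. In the first 6 panels every TCDD library lies below both DMSO libraries, and in the panels of Col6a2, Col9a3 and Col8a2 every TCDD library lies above both.

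These counts depended on which libraries entered the fit. When the fit left out all 3 libraries named above, edgeR called 5 collagens at 24 h (beside 4.98% of all genes), 6 at 72 h (beside 12.8%) and 12 at 96 h (beside 28.6%). The 5 at 24 h were Col1a1, Col1a2, Col3a1, Col4a5 and Col8a1, all lower. At 72 h they were Col1a1, Col1a2, Col4a5, Col6a5 and Col9a2, lower, and Col2a1, higher. At 96 h 8 were lower and 4 higher, the latter Col2a1, Col6a2, Col8a2 and Col9a3. The ES, 24 h and 72 h groups then hold 1 library each, assumed to vary like the others. The spread in this fit rests on the DMSO and 96 h pairs alone. Those pairs differed least, with a chi-square per gene of 3.23 and 18.9. With an offset for each library's GC trend 0, 2 and 9 collagens were called, beside 0.0659, 3.49 and 4.55% of all genes, and with the replicate number as a block too, 1 at 72 h (beside 1.37%) and 3 at 96 h (beside 2.43%). A fit on the 8 differentiated libraries called Col1a2 at 72 h (beside 1.91%) and Col1a2, Col4a5, Col6a5 and Col17a1 at 96 h (beside 2.53%). A fit on the 4 libraries compared called 12 at 96 h (beside 29.9%), and one with no expression filter called Col1a2 at 72 h (beside 0.288%).

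Some marker sums lay lower with TCDD and others higher. Fibroblast markers summed to 13.2 and 12.9 CPM in DMSO and 15.4 to 18.1 CPM in TCDD libraries, where 0 of 5 tested passed at any time. Postn was at 2.84 and 3.25 CPM in DMSO and 0.307 to 1.01 CPM with TCDD, while Thy1 was at 5.01 and 3.73 and at 8.10 to 10.2 CPM. Smooth muscle markers summed to 499 to 953 CPM with TCDD and 677 and 693 in DMSO, chondrocyte markers to 16.6 to 20.5 against 17.2 and 17.7 CPM, and epithelial markers to 1905 to 2466 against 1463 and 1486 CPM. Endothelial markers summed to 108 and 113 CPM in DMSO and to 63.3 to 96.7 CPM in the 6 TCDD libraries, all lower, although the median log2 difference of the 5 tested was positive at each time (0.16, 0.63 and 0.31). Pecam1, also expressed by ES cells, made up most of that sum, at 101.0 and 104.9 CPM in DMSO and 51.9 to 87.2 CPM with TCDD. Pluripotency markers summed to 3903 and 3712 CPM in DMSO, 3925 and 3685 at 24 h and 2576 to 2830 at 72 and 96 h. None of the tested markers of either list passed with TCDD. The part of these lists in the collagen levels was not tested. In the 7 lists of genes that modify, cut, link or bind collagen no gene passed at any TCDD time. Lox was at 0.729 and 0.543 CPM at 24 h, beside 2.57 and 3.15 in DMSO, and at 1.75 and 2.37 at 96 h.

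Between TCDD times edgeR called 0 of 37 collagens in each of 3 comparisons, beside 0% of all genes in each. From 24 to 72 h 10 had an unadjusted p under 0.05 (DESeq2 called 1, beside 4.10% of all genes, and limma-voom 0), from 24 to 96 h 7 (DESeq2 0, beside 0.850%, and limma-voom 0) and from 72 to 96 h 3 (DESeq2 and limma-voom 0). Over all 15175 tested genes 3285, 1761 and 710 had such an unadjusted p in edgeR. From 24 to 72 h the 4 libraries compared gave 2 collagens (Col7a1 and Col27a1, higher, beside 9.87% of all genes), the 8 differentiated libraries 2 (Col27a1, higher, and Col6a1, lower, beside 8.24%) and the set without the 3 libraries 3 (beside 6.00%). From 24 to 96 h that set gave 6 (beside 11.9%) and the GC offset 1, Col2a1, higher (beside 0.672%). Col6a1 was at 9.87 and 7.79 CPM at 24 h and at 4.31 and 4.30 CPM at 72 h, the gene that DESeq2 called (edgeR log2 -1.03, adjusted p = 0.149). Col3a1 was at 2.61 and 1.81 CPM at 24 h, 3.74 and 3.86 at 72 h and 4.02 and 5.16 at 96 h, and in DMSO at 3.82 and 5.73 CPM.

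In TCDD 72 h replicate 1 several rare collagens stood high. Col7a1 was at 24.0 CPM there and between 6.66 and 10.7 CPM in the 7 other DMSO and TCDD libraries. Col27a1 was at 7.42 CPM there and 3.63 in its partner, and Col24a1 at 1.46 and 0.133 CPM. Without that library the difference of Col24a1 between 72 and 24 h changed sign. Counts were not stated to use strand, so reads of a gene and of an antisense transcript cannot be told apart for any member.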

How the data were processed

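The libraries, with 15326612 to 31192459 counts, were made by the dUTP method from polyadenylated RNA, per the labels' protocols. The authors deposited 1 table of whole-number counts per gene for 10 libraries, not normalized. Tools listed, without roles, in the submitters' processing notes are TopHat, bcl2fastq, CASAVA 1.8 and edgeR, with mm10 as the build. Which program counted the reads, whether it used strand, and which gene models it used are not given here. Of 24541 rows, 1 had no symbol (0.000201 to 0.00285% of counts) and was left out. Table starts count from 0 and were raised by 1 for printing.

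The quasi-likelihood test of edgeR 4.0.16 (R 4.3.3, robust) was fitted to the 10 libraries together, with a mean for each group, scaling by TMM and the filterByExpr filter (15175 genes, 5 residual degrees of freedom), two-sided, at a Benjamini-Hochberg adjusted p under 0.05 within each of 7 comparisons. CPM used TMM-scaled library sizes, and RPKM the longest protein-coding GENCODE M21 transcript of a gene, where it has one. Errors are SD over 2 libraries or SE of the fit. On simulated counts for TCDD 96 h versus DMSO (15031 genes) the test recovered 23% of genes changed 2-fold and 98% of those changed 4-fold, with 5 false calls. These counts had the same spread for every gene and group (biological CV 0.239), and genes with few counts were not among those changed. The real replicates differed in spread between groups, so these shares need not hold for the collagens here.

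The text gives library values or ranges for members with a group mean of 20 CPM or a call, and names up to 4 genes of each related list by smallest p in DMSO against ES cells. One called gene of the list of basement membrane partners is counted but not reported here. Members near the smallest p with TCDD, and the other members named, were chosen after their values were seen. Members, lists and tests were chosen with earlier results of these data known. Alternatives were RLE and upper quartile scaling, other filters, DESeq2 1.42.0, limma-voom (limma 3.58.1), other library sets, the replicate number as a block, a GC offset, at least a 2-fold change, and each library left out. Marker lists for pluripotent, cardiomyocyte, fibroblast, smooth muscle, endoderm, endothelial, chondrocyte and epithelial cells were checked. Endothelial markers summed to 144 and 172 CPM in ES libraries, 108 and 113 CPM in DMSO and 63.3 to 96.7 CPM in TCDD libraries.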

Additional observations from a re-analysis of the deposited data

How the results depend on the processing

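For control against ES cells, collagen calls numbered 21 to 27 (main value 25) in every alternative but the removal of single libraries, where they ran from 18 to 27. Calls over all genes were 4697, and 2337 with only the 4 libraries compared. They were 8027 without the 3 libraries set aside (ES replicate 2, TCDD 24 h replicate 1, TCDD 72 h replicate 1), and 1902 to 7736 with 1 library left out. The GC offset gave 6607 of 15175 genes beside 27 of 37 collagens, and 5884 with the replicate block too. The block alone gave 3728, a change of at least 2-fold 3634, and the remaining alternatives 4384 to 5009.

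For TCDD at 24 h against DMSO, 0 collagens became 1 in DESeq2 and 5 without the 3 libraries, and 0 genes became 1 with no filter, 41 in DESeq2, 1 with only the 8 cardiomyocyte libraries, 10 with the GC offset and 766 without the 3 libraries. Leaving out 1 library gave 0 collagens and 0 to 1 genes. At 72 h, 0 collagens became 1 with no filter, in DESeq2, with the 8 libraries and with GC offset plus replicate block, 2 with the GC offset and 6 without the 3 libraries. The 7 genes became 59 with no filter, 310 in DESeq2, 0 with the 4 libraries, 288 with the 8, 0 with the replicate block, 530 with the GC offset, 208 with it and the block, and 1967 without the 3 libraries. Leaving out 1 library gave 0 to 2 collagens and 0 to 969 genes.

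At 96 h, 0 collagens became 3 in DESeq2, 12 with the 4 libraries, 4 with the 8, 9 with the GC offset, 3 with it and the block, and 12 without the 3 libraries. The 13 genes became 98 with no filter, 249 in DESeq2, 4383 with the 4 libraries, 380 with the 8, 0 with the replicate block, 691 with the GC offset, 369 with it and the block, and 4397 without the 3 libraries. Leaving out 1 library gave 0 to 4 collagens and 0 to 376 genes, the 4 (Col1a2, Col4a5, Col6a5 and Col17a1) without either ES library.

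From TCDD 24 to 72 h, 0 collagens became 1 in DESeq2, 2 with the 4 and with the 8 libraries and 3 without the 3 libraries, and 0 genes became 9 with no filter, 622 in DESeq2, 1430 with the 4 libraries, 1240 with the 8, 53 with the GC offset and 924 without the 3 libraries. Leaving out 1 library gave 0 to 5 collagens (5 without TCDD 72 h replicate 2) and 0 to 1468 genes. From 24 to 96 h, 0 collagens became 1 with the GC offset and 6 without the 3 libraries, and 0 genes became 2 with no filter, 129 in DESeq2, 83 with the 8 libraries, 102 with the GC offset, 5 with it and the block and 1828 without the 3 libraries. Leaving out 1 library gave 0 collagens and 0 to 97 genes. From 72 to 96 h, 0 genes became 2 without the 3 libraries and 0 to 331 with 1 library left out, with 0 collagens throughout.

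The fibrillar sum at TCDD 96 h was 151.7 CPM with RLE factors and 158.8 CPM with none, against an SD of 0.0876, and the sum of the other collagens in DMSO was 744.6 CPM with none. Col24a1 between TCDD 72 and 24 h turned from 2.12 to -0.71 without the 3 libraries, and ran from -0.32 (without TCDD 72 h replicate 1) to 3.05 (without TCDD 72 h replicate 2) with 1 library left out. The GC offset moved the median log2 change of all genes from 0.0077 to -0.13 for DMSO against ES. For TCDD 24 h against DMSO the same offset moved Col4a1 from 0.238 to -0.0065, Col4a2 from 0.429 to 0.165 and Col18a1 from 0.459 to 0.200. The median over the collagens went from -0.105 to -0.337 there, and that over all genes from 0.024 to 0.034. The causes were not tested. Differences between replicates 1 and 2 correlated between groups from -0.755 to 0.448. Large differences within a pair can give either sign, so whether replicate numbers pair the libraries was not settled. With the replicate block 24 collagens were called for DMSO against ES, all but Col18a1. Members under 1 CPM rest on few counts.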
